A study of Ovis aries with 60 samples.

Results

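The listed CG cytosines of sheep chromosome 10 were selected on their low mean methylation level, and they made up 12420 of the 313527 that were listed in F0. In F1 they were 11583 of 294661, and in F2 they were 4411 of 122453. A cytosine was a member when the authors' tables placed it on chromosome 10, and 15862 different positions were listed in at least 1 generation. The level of a cytosine is the percentage of its covering reads that were read as methylated, and positions are those of the assembly Oar_rambouillet_v1.0. Every listed cytosine has at least 10 covering reads in each sample of its generation. The levels of chromosomes, windows and stretches are therefore those of listed cytosines, not of all CG cytosines. Because the chromosome was chosen for its level, its level against the other autosomes is given as a description, without a test.

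DNA methylation was measured by whole-genome bisulfite sequencing (WGBS) of 40 sperm samples from 3 generations of Polypay sheep. The F0 rams came from twin pairs: 5 had encapsulated methionine top-dressed on the control diet between weaning and puberty, as 1.5 g or a 0.22% addition, and their 5 twins had the control diet alone. The F1 samples were 10 pools of sperm, each from several sons of 1 F0 sire (5 methionine line, 5 control line), and the F2 samples were 20 individual rams, with 2 from each F0 sire through a single F1 ram. The mothers were untreated ewes. All F1 and F2 animals ate the control diet, so the comparison in these generations is of the sire's or grandsire's diet. Methionine is a methyl donor, and the comparison asks whether it left a mark in sperm methylation. Which rams were twins of each other is not given in the labels, and F2 rams of 1 sire are relatives, so p-values treat related animals as independent. DNA was extracted from semen, and the labels state no removal of other cells before DNA extraction.

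In mammals, methyl groups are placed on cytosines that precede a guanine, and most of these CG cytosines carry them in sperm, apart from the CG-rich starts of many genes. Long stretches in which CG cytosines are only partly methylated are known from placenta, cultured cells and tumours, where they cover gene-poor DNA and are called partially methylated domains. A level between the extremes means that some reads at that position were read as methylated and others were not. Whether sequence differences between animals or gene copies contribute to such levels was not tested.

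Chromosome 10 had the lowest mean CG level of the 26 autosomes in F0, at 67.8% ± 1.19 (SD over 10 rams), and in F1, at 67.1% ± 1.60 (10 pools). In the 20 F2 rams its mean was 70.4% ± 1.47, and chromosome 15 was lower at 66.8%. Chromosome 15 was second in F0 at 69.0% and in F1 at 68.5%. The other autosomes spanned 69.0% to 81.2% in F0, with a median of 76.4%. Every sample had a lower level on chromosome 10 than on the other autosomes together. The difference ranged from -9.36 to -6.87 points over the F0 rams, from -9.33 to -7.69 over the F1 pools and from -8.61 to -4.09 over the F2 rams. The median coverage at the chromosome 10 cytosines was 18 to 32 reads per ram in F0, 16 to 32 per pool in F1 and 12 to 37 per ram in F2.

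**Figure D1:**
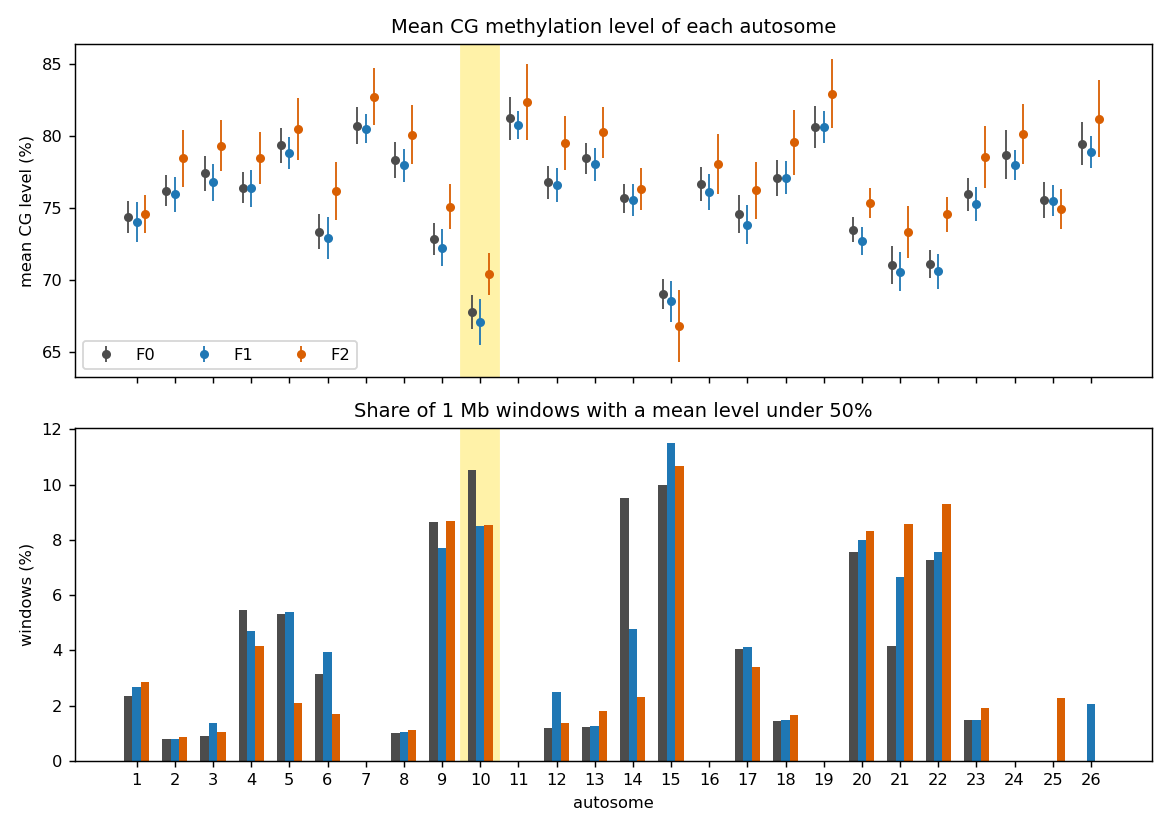
The upper plot gives the mean CG level (%) of each autosome with the SD over samples as bars, and the lower plot gives the share (%) of its 1 Mb windows with a mean level under 50%, with 1 colour per generation and chromosome 10 shaded. Chromosome 10 is the lowest autosome in F0 (67.8%) and F1 (67.1%), and chromosome 15 is lower in F2 (66.8%).

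The low level was not spread evenly along the chromosome. Chromosome 10 was divided into windows of 1 Mb, named here by their start and end in Mb, and 95 of its 98 windows held at least 20 listed CG cytosines in F0. The median window had a level of 80.03%, but 10 windows were below 50%, and these are called low windows. They lay in 5 stretches: 0 to 2 Mb, 8 to 10 Mb, 39 to 41 Mb, 44 to 47 Mb and 81 to 82 Mb. The low windows made up 10.2% of the windows and held 2704 F0 cytosines (21.8% of those listed on the chromosome), 2687 F1 cytosines (23.2%) and 960 F2 cytosines (21.8%).

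The lowest window was 1 to 2 Mb, at 31.0% ± 4.30 in F0, with the 10 rams between 25.6% and 38.4%. It was followed by 45 to 46 Mb at 35.8%, 39 to 40 Mb at 39.5% and 40 to 41 Mb at 40.6%. The next were 44 to 45 Mb at 46.0% and 8 to 9 Mb at 46.1%. At the threshold, the window 81 to 82 Mb lay just inside at 49.8% with only 47 cytosines, and the window 7 to 8 Mb lay just outside at 52.3%. The highest windows were 96 to 97 Mb at 94.4% and 34 to 35 Mb at 92.2%. The windows of this chromosome thus ranged from 31.0% to 94.4%, while the F0 rams differed by at most 12.8 points within a low window.

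Lower levels also surrounded the low windows. With the limit at 70%, 29 windows were included, and they formed stretches of 3 Mb from the start of the chromosome, 7 Mb from 5 to 12 Mb, 3 Mb from 39 to 42 Mb and 6 Mb from 43 to 49 Mb, with 5 stretches of 1 to 3 Mb between 61 and 82 Mb. These 29 windows held 48.7% of the F0 cytosines.

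The edges of the stretches were sharp in places, as levels in bins of 100 kb showed. Before the stretch that starts at 39 Mb, the F0 level fell from 86.9% in the bin that begins at base 38500001 to 69.6% in that at 38800001, 52.7% in that at 38900001 and 33.6% in that at 39200001. The descent was also present in F1 and F2, with 52.9% and 65.5% in the bin at 38900001. These bins were picked after their values were seen. Within the first stretch, the bin at 500001 stood out with a level of 85.3% in F0, 86.9% in F1 and 81.9% in F2. Of the F0 bins on either side, that at 200001 had 22.3% and that at 700001 had 23.7%, though neither adjoins it. The bin at 500001 was thus above the mean of its window, 0 to 1 Mb, which was 46.2% in F0, 50.2% in F1 and 50.9% in F2. It was also picked after its values were seen. Whether the F2 cytosines of very high coverage in this window, given below, lie in that bin was not tested.

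**Figure D2:**
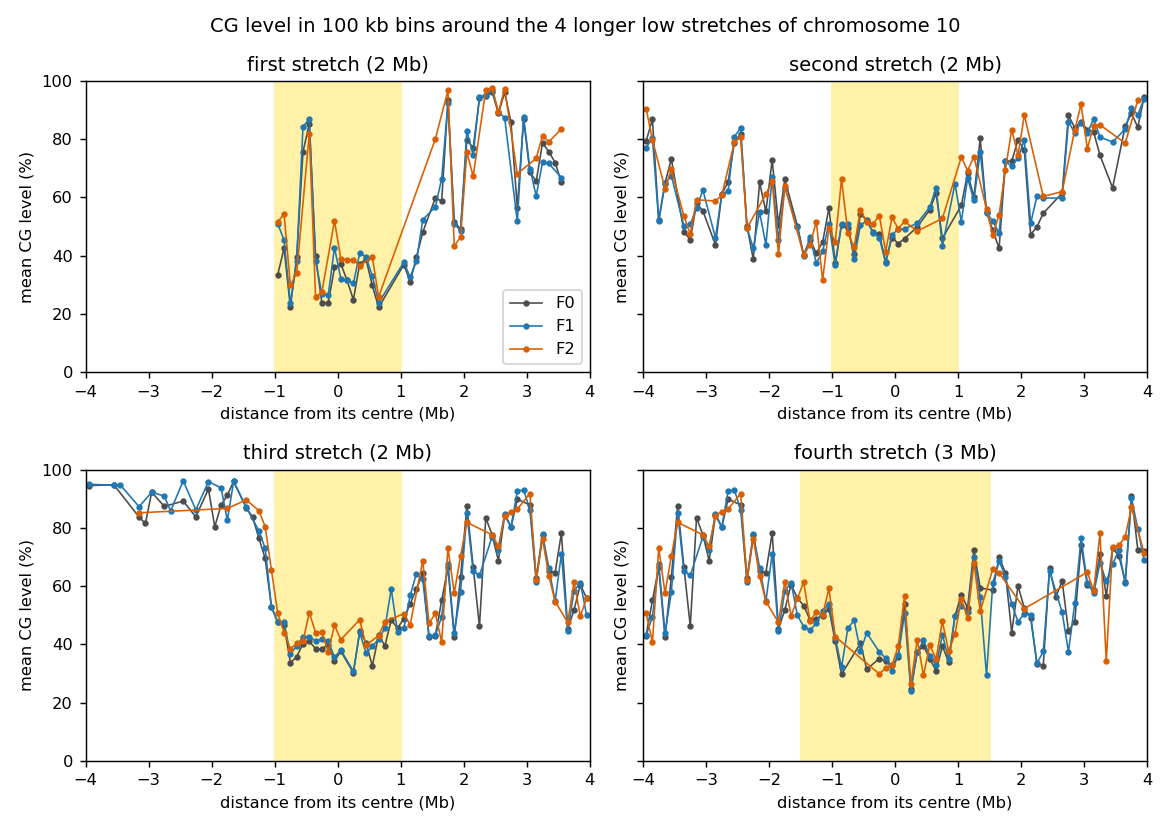
Each plot gives the mean CG level (%) in 100 kb bins with at least 5 listed cytosines against the distance (Mb) from the centre of a low stretch, which is shaded, with 1 line per generation. In the first stretch a peak of 85.3% in F0 stands out, and the left edge of the third stretch falls from 86.9% to 33.6% in F0.

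No genome annotation of this assembly was used, so genes are placed only where the study's own annotation puts a listed cytosine in an intron, and other genes are named only by their order. Just after the first stretch, cytosines at 2742558 and 3596186 lie in introns of TDRD3, which encodes a Tudor-domain protein that binds methylated arginine, and of DIAPH3, a formin that nucleates actin filaments. The 100 kb bin with the TDRD3 cytosine had a level of 93.3% in F0 although its window, 2 to 3 Mb, averaged 56.8%. The window with the DIAPH3 cytosine, 3 to 4 Mb, had a level of 86.2%. Between the third and the fourth stretch, a cytosine at 42282042 lies in an intron of PCDH9, a protocadherin of cell adhesion, and its window had a level of 79.2%. After the fourth stretch, a cytosine at 49999840 lies in an intron of DACH1, a transcriptional cofactor of development, in a window at 78.2%. These 4 genes were chosen after the levels were seen. Of their windows, those of DIAPH3, PCDH9 and DACH1 were above the chromosome's mean, and that of TDRD3 was below it. In the gene order of RefSeq (assembly ARS-UI_Ramb_v3.0, another build, used for order only), KLHL1 was the only protein-coding gene between PCDH9 and DACH1, out of 347 on the chromosome. PCDH20, a further protocadherin, directly preceded TDRD3, with 2 uncharacterised genes before it. In the same order, 108 protein-coding genes lay between DIAPH3 and ALG5 (intron cytosine at 27182763), an interval that holds the second stretch. ALG5 and PCDH9, on either side of the third stretch, had 92 between them. GPC5 (74310214) and PCCA (86037991), on either side of the fifth, had 38. These intervals are longer than the stretches, so the gene density of the low windows was not measured.

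The low windows were partly methylated rather than unmethylated. In F0, 75.04% of their cytosines had a mean level from 20% up to 80%, 17.5% were below 20% and 7.43% were at 80% or above. Outside the low windows of chromosome 10 these shares were 36.6%, 4.42% and 59.0%. F1 and F2 had like shares in the low windows, with 78.1% and 77.8% of cytosines between the limits. The partial level was present on both strands, at 43.6% on the plus and 41.0% on the minus strand in F0. The low windows of the other autosomes, found by the same rule, had 73.3% of their 12117 cytosines between the limits.

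**Figure D3:**
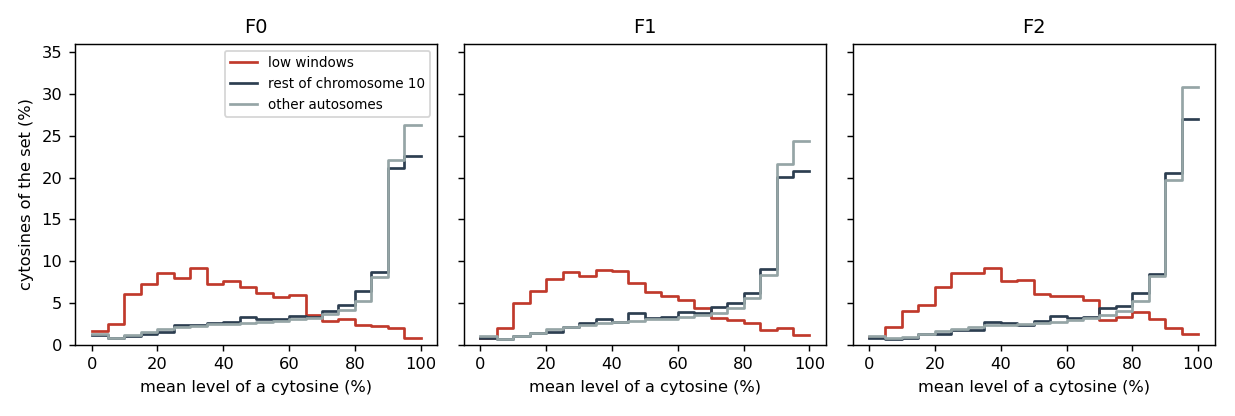
Each plot gives, for 1 generation, the share (%) of cytosines in steps of 5 points of their mean level (%) over samples, for the low windows, the rest of chromosome 10 and the other autosomes. The low windows have a broad hump below 60%, with 75.04% of cytosines from 20% up to 80% in F0, while the other sets pile up above 80%.

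The pattern of windows was alike in the 3 generations. All 10 low windows had at least 20 listed cytosines in F1 and F2, where their levels ranged from 33.1% to 54.2% and from 36.1% to 59.7%, and 7 and 6 of them were again below 50%. Over the 82 windows with at least 20 cytosines in each generation, the window levels had a Pearson correlation of 0.99 between F0 and F1 and 0.97 between F0 and F2. These correlations are across windows of related animals on 1 chromosome and are a description only. In F0, 10.53% of the chromosome's windows were low, against 2.83% of 2471 windows on the other autosomes. Chromosome 15 came closest with 10.0% in F0, and it had the larger share in F1 (11.5% against 8.51%) and in F2 (10.7% against 8.54%). Chromosomes 14 (9.52%) and 9 (8.65%) came next in F0. In F2 chromosomes 22 (9.30%), 9 (8.70%) and 21 (8.57%) also had larger shares than chromosome 10.

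Leaving out the low windows of chromosome 10 and those of the other autosomes reduced the gap between them. Low windows were chosen for their level and are more frequent on chromosome 10, so this reduction follows largely from the choice. The values are given as a description. In F0 the mean gap was -8.16 points with all cytosines and -2.62 without low windows. The corresponding values of F1 were -8.46 and -2.95, and those of F2 were -7.01 and -2.05. A smaller deficit thus remained outside the low windows, and it was present in every sample, from -3.26 to -1.86 points in F0, -3.64 to -2.27 in F1 and -2.89 to -1.37 in F2. The mean level of the low windows of chromosome 10 exceeded that of the other autosomes' low windows by 1.55 points over the F0 rams, 2.22 over the F1 pools and 3.65 over the F2 rams, on average. The difference was positive in every F0 and F1 sample, and in F2 it ranged from -1.51 to 5.92 points.

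The low windows were read slightly more deeply than the other autosomes. The relative depth, defined as the mean coverage of the low-window cytosines divided by that of the other autosomes' cytosines, was 1.09 ± 0.0370 in F0 and 1.09 ± 0.0186 in F1. Every F0 and F1 sample was above 1, with ranges of 1.04 to 1.16 and 1.05 to 1.12. In F2 the mean was 1.08 ± 0.0599 with a range of 0.987 to 1.21, but this value rested on the first window, 0 to 1 Mb, whose relative depth was 1.70 on average. The other 9 low windows had a mean relative depth between 0.869 and 1.02 in F2. In the first window 15 of 163 F2 cytosines had a mean coverage above 100 reads, up to 319.9, and these 15 had a level of 84.9%, against 47.5% for the rest of the window. By median coverage, which is less moved by such cytosines, the low windows were at 1.09 (F0), 1.08 (F1) and 1.07 (F2) times the other autosomes, and the rest of chromosome 10 was at 0.981, 0.993 and 0.992. Over windows, level and coverage had a Spearman correlation of -0.75 in F0 (95 windows), -0.65 in F1 (94) and -0.46 in F2 (82), given as a description. Across the samples of F0, low-window level and relative depth had a Pearson correlation of 0.18 (n = 10, permutation p = 0.621, Spearman's rho 0.13, p = 0.733, r = -0.15 without the 2 samples farthest from the median). In F1 it was 0.67 (n = 10, permutation p = 0.0272, adjusted 0.0488), with a Spearman's rho of 0.52 (permutation p = 0.135) and an r of 0.54 without the 2 farthest pools. In F2 it was 0.31 (n = 20, permutation p = 0.191, Spearman's rho 0.30, p = 0.207), and 0.086 without the 2 farthest rams.

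The low windows also held more listed cytosines per Mb, at 270.4 in F0 against 110.4 in the other windows. The listed CHG cytosines, at which the base after the cytosine is not guanine and which mammalian cells such as sperm hardly methylate, had the same imbalance, at 2104 per low window against 792.1. There were 12.9 listed CG cytosines per 100 listed CHG cytosines in the low windows and 13.9 outside them in F0, and 8.22 and 7.31 in F2. The CHG level was 0.345% ± 0.0095 in the low windows and 0.404% ± 0.0123 outside them in F0. Both were below 1%, so the partial methylation of the low windows was seen in the CG and not in the CHG context.

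The 3 low-window cytosines with the highest mean coverage in F0 give levels with a small counting error in that generation. The first of them was below 20% and the other two were between 20% and 80%. The cytosine at 39491747 on the minus strand was covered by 90 to 166 reads per F0 ram, and its level was 14.5% ± 4.51 in the methionine group and 12.7% ± 4.43 in the control group (n = 5 each). In F2 the means were 14.7% and 16.5%. The cytosine at 8357739 on the plus strand had 30.2% ± 6.33 in methionine and 28.0% ± 4.203 in control F0 rams, and 32.1% and 31.3% in F2. At 8357889 on the same strand the F0 levels were 28.2% ± 11.8 and 28.5% ± 8.18. The diets overlapped in each generation at these 3 positions. Their coverage was far above the low-window median of 24.7 reads in F0. Whether reads of several loci were joined at these positions was not tested.

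Diet was compared first over the whole chromosome, to ask whether the methionine line differed in mean level. The F0 methionine rams had chromosome 10 levels of 68.4%, 65.7%, 67.3%, 67.4% and 66.7%. The control rams had 68.3%, 68.2%, 68.0%, 67.3% and 70.2%, in order of sire number as in the methionine group. The methionine group was lower by 1.31 points on average (exact permutation test, two-sided p = 0.0952), and the groups overlapped. This test ignores the twin pairs. With consecutive sire numbers taken as twin pairs, which the labels do not state, the exact sign-change p was 0.25. The smallest possible value with 5 pairs is 0.0625. In F1 the pools of the methionine line were at 67.5%, 64.8%, 67.2%, 66.4% and 67.2%, and those of the control line at 68.4%, 66.2%, 68.7%, 64.7% and 69.5%. The difference was -0.89 points (exact permutation p = 0.421). With the same assumed pairs of sires, the exact sign-change p in F1 was 0.3125. In F2 the 10 methionine rams ranged from 67.7% to 72.9% with a median of 70.4%, and the 10 control rams from 68.3% to 72.4% with a median of 70.7%. The F2 difference was 0.14 points (permutation test, 100000 resamples, p = 0.834). No diet difference in the chromosome's mean level passed the test in any generation.

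Relative to the other autosomes, chromosome 10 was alike in the diets. The mean gap to the other autosomes was -8.20 ± 0.884 points in F0 methionine rams and -8.12 ± 0.777 in F0 controls, a difference of -0.08 points (exact permutation p = 0.897). The F1 difference of the gap was 0.06 points (exact permutation p = 0.889) and the F2 difference was -0.16 points (permutation p = 0.791). The difference of -1.31 points in F0 was thus close to that of the other autosomes, which was -1.24 points (exact permutation p = 0.0714).

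The low windows were then compared by diet. Their levels were 42.8%, 39.2%, 39.2%, 42.5% and 46.9% in the F0 methionine rams and 43.3%, 42.7%, 38.9%, 40.6% and 47.2% in the control rams. The highest values of both groups were those of rams 23 and 24. The mean difference was -0.43 points (exact permutation p = 0.802). In F1 the methionine pools had 46.4%, 40.6%, 42.6%, 42.3% and 45.7%, and the control pools had 45.1%, 42.6%, 44.9%, 40.6% and 46.7%. The F1 difference was -0.45 points (exact permutation p = 0.810), and the groups overlapped. In F2 the methionine line ranged from 39.5% to 56.0% with a median of 44.0%, and the control line from 40.3% to 60.01% with a median of 44.9% (difference -1.02 points, permutation p = 0.702). Without ram 400, which had the lowest coverage, the F2 difference was 0.47 points (permutation p = 0.840). The relative depth of the low windows differed between the diets by -0.014 in F0, by -0.0084 in F1 and by -0.038 in F2 (permutation p = 0.587, 0.548 and 0.155, the first 2 exact). Without the first Mb the F2 difference of relative depth had the other sign, at 0.019 (permutation p = 0.490). Over the 12 comparisons of diet on the 4 measures, every p adjusted by the Benjamini-Hochberg method was 0.897. With 5 samples per group, the smallest exact p is 0.00794.

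**Figure D4:**
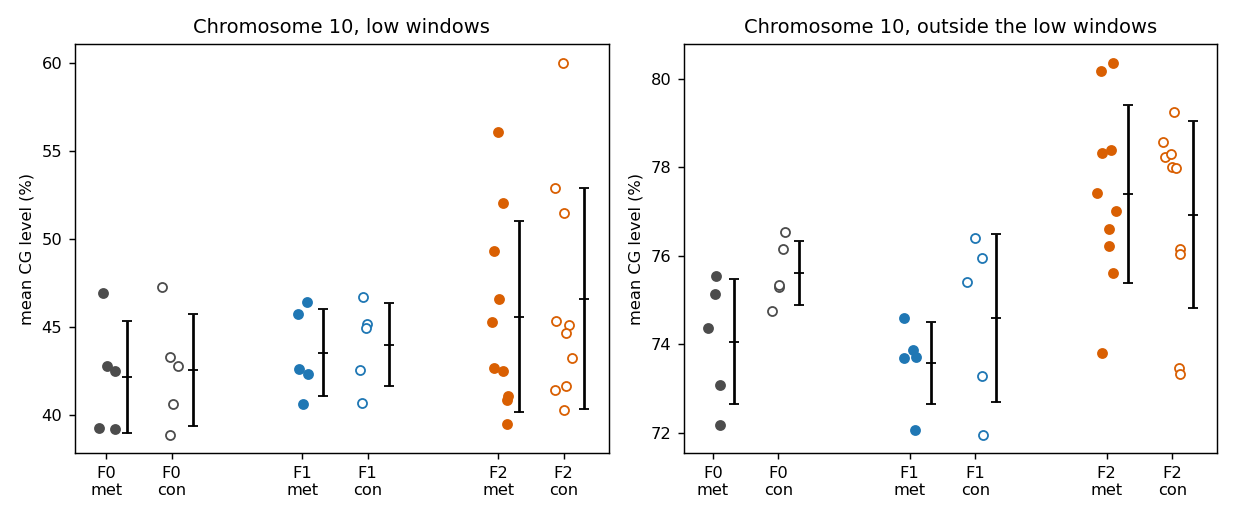
Each point is the mean CG level (%) of 1 sample in the low windows (left) or in the rest of chromosome 10 (right), by generation and diet of the F0 sire (met, methionine, filled; con, control, open), with the group mean and SD beside it; the axes do not start at 0. The diets overlap in each generation, and the F2 rams spread from 39.5% to 60.01% in the low windows.

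What varied in the low windows was the individual sample. In F2 the 20 rams ran from 39.5% to 60.01% there, an SD of 5.73 points, against 2.03 points in the rest of the chromosome. The SD in the low windows was 2.998 points in F0 and 2.29 in F1. Ram 400 of the control line had the highest F2 level (60.01%), followed by ram 320 of the methionine line (56.0%), the second F2 ram of control sire 24 (52.9%) and ram 480 of the methionine line (52.0%). Ram 400 also descends from sire 24, whose own level of 47.2% was the highest in F0. The pool of this sire's sons had the highest level in F1 (46.7%). Other families differed from this. Ram 320 descends from sire 5, whose own level was 39.2%. The pool of that sire's sons had the lowest level in F1 (40.6%), and his other F2 ram had 41.1%. Sire 23 had 46.9% in F0, but his F2 rams had 45.3% and 40.8%. The relations over all sires are given below. Rams 400 and 320 also had the lowest median coverage of the F2 rams, at 12 and 17 reads, and ram 480 and the second ram of sire 24 had 25 each. Most low windows varied in parallel: across all 20 F2 rams, the 45 pairwise correlations of the 10 windows had a median of 0.86 and a lowest value of 0.17, and ram 400 was the highest in 9 of them. In the window 1 to 2 Mb, for example, the F2 rams ranged from 27.4% to 58.5% with a median of 34.4%.

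The same samples were high in the low windows of the other autosomes. Across the samples of a generation, the level in the low windows of chromosome 10 and that in the low windows elsewhere had a Pearson correlation of 0.98 in F0 (n = 10, permutation p = 2e-05) and 0.97 in F1 (n = 10, permutation p = 2e-05). The Spearman correlations were 0.96 and 0.95 (permutation p = 5e-05 and 1e-04). Without the 2 samples farthest from the median the Pearson values were 0.95 and 0.96. In F2 there was a gap between 47.2% and 53.5% in the low windows elsewhere, with 4 rams above it, so the relation was computed in the 16 rams below, where Pearson's r was 0.97 and Spearman's rho 0.98 (both permutation p = 1e-05, the smallest possible), and r was 0.95 without the 2 farthest rams. Over the 11 relations of this kind that were computed within generations, the largest adjusted p of these was 0.000275. These measures come from the same libraries. A sample's level in the low windows of chromosome 10 was thus shared with low windows elsewhere in its genome.

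**Figure D5:**
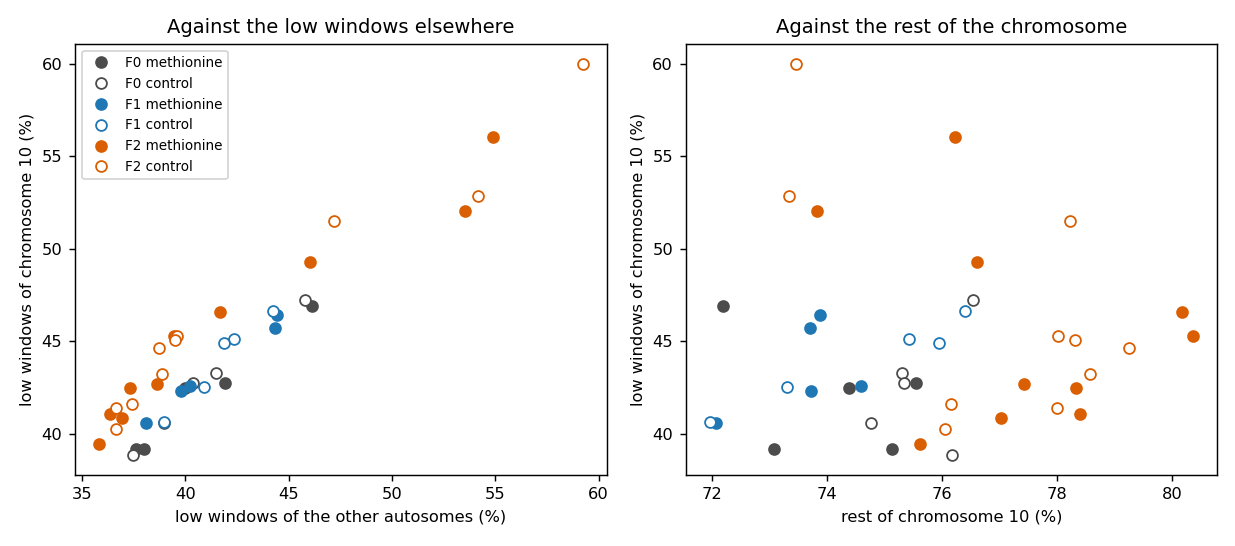
Each point is 1 sample, with the mean CG level (%) of the low windows of chromosome 10 on the vertical axis against that of the low windows of the other autosomes (left) and that of the rest of chromosome 10 (right); filled points are the methionine line, open points the control line, and colours mark generations. On the left the samples lie along a line, from 39.5% to 60.01% in F2, and on the right the 4 F2 rams with the highest low-window levels lie at 73.3% to 76.2% of the horizontal axis.

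The relation between the low windows and the rest of chromosome 10 differed in sign and size between sets of samples, which was not tested. Pearson's r was -0.08 in F0 (n = 10, permutation p = 0.839, Spearman's rho 0.14, p = 0.707) and 0.18 without the 2 farthest rams. In F1 it was 0.75 (n = 10, permutation p = 0.0153, adjusted 0.0337, Spearman's rho 0.72, p = 0.0232), and it dropped to 0.47 without the 2 farthest pools. Over all 20 F2 rams it was -0.48 (permutation p = 0.0311, adjusted 0.0488, Spearman's rho -0.16, p = 0.505), and -0.28 without the 2 farthest rams. In the 16 F2 rams below the gap it was 0.41 (permutation p = 0.116, Spearman's rho 0.49, p = 0.0559), and 0.82 without the 2 farthest rams. The 4 F2 rams with the highest low-window levels had between 73.3% and 76.2% in the rest of the chromosome, where the range over all F2 rams was 73.3% to 80.4%. The difference between the low windows and the rest was accordingly smallest in these rams, at -13.4 points in ram 400, -20.2 in ram 320, -20.4 in the second ram of sire 24 and -21.8 in ram 480, with a median of -34.6 over the 20 rams. In F0 the smallest difference was that of ram 23, at -25.3 points.

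The RNA of the same F2 semen samples, taken after lysis of somatic cells, held transcripts of other cell types beside those of sperm. The levels are given as CPM, the counts of a gene scaled to the same library total. The summed CPM of the 10 leukocyte markers ranged from 147.0 to 20979 with a median of 10708. That of the 8 listed epithelial markers ranged from 118.9 to 9688 with a median of 2881. These sums rested largely on few genes. S100A9 and S100A8 had medians of 6049 and 2922 CPM, and the other leukocyte markers 3.25 to 383.1. KRT4 had a median of 2389 CPM, and the other epithelial markers 3.50 to 206.9. Sperm and spermatid markers (9 of 10 listed) ranged from 34.6 to 8008 CPM, with a median of 389.5. PRM2 and the keratins KRT13 and KRT14 were not in the table, and the 8 markers of Sertoli, Leydig and muscle cells summed to 11.8 to 163.8 CPM. Ram 400 had 13597 CPM of leukocyte, 4729 CPM of epithelial and 229.6 CPM of sperm markers, and the second ram of sire 24 had 13967, 7661 and 304.7. Ram 320 had 13596 CPM of leukocyte, 3236 of epithelial and 167.0 of sperm markers, and ram 480 had 10306, 4561 and 146.2. The ram with the lowest low-window level (39.5%), from methionine sire 9, had 13645, 2605 and 148.9. The part of such cells in the levels was not tested beyond the following relations. Across the 20 rams, the difference between the low windows and the rest of chromosome 10 had Pearson correlations with the log2(CPM + 1) of these lists of 0.24 for leukocytes, 0.36 for epithelium, -0.35 for sperm and -0.39 for Sertoli, Leydig and muscle cells (permutation p = 0.297, 0.110, 0.128 and 0.0874). The Spearman values were 0.40, 0.49, -0.30 and -0.38 (permutation p = 0.0851, 0.0290, 0.199 and 0.0952), and no relation passed adjustment over the 4 lists (smallest adjusted p = 0.116). Without the 2 rams farthest from the median of each list the Pearson values were 0.29, 0.41, -0.32 and -0.14. The share of other cells in the DNA was not measured.

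Sires were next compared with the pools of their sons. By sire, the low-window level of the F0 ram and that of the pool of his sons had a Pearson correlation of 0.65 (n = 10, permutation p = 0.0461) and a Spearman correlation of 0.71 (permutation p = 0.0272), but r was 0.39 without the 2 farthest sires, and the adjusted p over 12 relations was 0.138 and 0.122. In the rest of chromosome 10 Pearson's r was 0.64 (permutation p = 0.0453), Spearman's rho was 0.70 (permutation p = 0.0306), and r was 0.76 without the 2 farthest sires. In the low windows of the other autosomes r was 0.79 (permutation p = 0.00639, adjusted 0.0767), rho was 0.71 (permutation p = 0.0273), and r was 0.63 without the 2 farthest. Between F0 rams and the means of their F2 grandsons r was 0.50 in the low windows of chromosome 10 (n = 10, permutation p = 0.140), rho was 0.27 (permutation p = 0.449), and r was 0.42 without the 2 farthest. In the rest of chromosome 10 this r was -0.49 (permutation p = 0.151), rho was -0.41 (permutation p = 0.248), and r was -0.51 without the 2 farthest. None of these relations passed the adjustment. At the level of windows, the deviations of a sire from his group mean over 60 windows of chromosome 10 correlated with those of his sons' pool at 0.26 to 0.77 in the 10 families, and 8 of the 10 sires correlated best with their own sons. With the F2 grandsons these values ranged from -0.45 to 0.79, and 5 sires correlated best with their own.

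To compare generations, only cytosines listed in all 3 were used, 2809 on chromosome 10 and 683 in its low windows. At these, chromosome 10 had a mean level of 67.3% ± 1.11 in F0 (n = 10), 67.1% ± 1.51 in F1 (n = 10) and 68.7% ± 1.69 in F2 (n = 20). F1 differed from F0 by -0.11 points (permutation p = 0.848). F2 was higher than F0 by 1.47 points (permutation p = 0.0205, adjusted over 6 comparisons 0.123). The other autosomes were higher in F2 by 1.41 points (permutation p = 0.0121), so that the gap between chromosome 10 and the others differed by 0.06 points (permutation p = 0.902). With reads summed over cytosines, in place of a mean over cytosines, the F2 minus F0 difference was 3.19 points for chromosome 10 (permutation p = 3e-05) and 2.60 for its gap to the other autosomes (permutation p = 1e-04), so whether chromosome 10 differed from the others depended on the weights. Whether the libraries of the generations were prepared together is not given in the sources used here.

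The low windows were chosen for an F0 level under 50%, which by itself favours higher values in other generations, so no call is drawn from the following tests. In the low windows the levels at these cytosines were 42.7% ± 2.82 for the F0 rams, 43.5% ± 2.08 for the F1 pools and 45.9% ± 5.78 for the F2 rams. The F2 rams spanned 38.7% to 60.2%, a range that included every F0 ram, from 39.3% to 47.2%. F1 differed from F0 by 0.78 points (permutation p = 0.487) and F2 from F0 by 3.22 points (permutation p = 0.107, adjusted 0.321), or 2.47 without ram 400 (permutation p = 0.150). With each sire as a replicate block and his 2 F2 grandsons averaged, the difference of 3.22 points had an exact sign-change p of 0.0352. With reads summed over cytosines it was 5.84 points (permutation p = 0.00537).

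Single cytosines that differed by diet were called by a likelihood-ratio test on the reads summed over each diet group. A call required the diets to be 20 points or more apart, with a Benjamini-Hochberg adjusted p not above 0.01. In F0, 138 of the 12420 chromosome 10 cytosines were called, or 1.11%, against 1.82% of all listed CG cytosines, and 56 of them were higher and 82 lower in the methionine group. This was the smallest share of the 26 autosomes in F0. In F1, 93 of 11583 were called, or 0.803%, against 1% of all, with 49 higher. In F2, 111 of 4411 were called, or 2.52%, against 2.19% of all, with 56 higher. From the lowest share, chromosome 10 ranked 9 of 26 in F1 and 14 of 26 in F2.

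Within the chromosome, fewer of the low-window cytosines were called. In F0, 15 of 2704 were called in the low windows (0.555%) and 123 of 9716 outside them (1.27%). In F1 the numbers were 8 of 2687 (0.298%) and 85 of 8896 (0.955%), and in F2 they were 8 of 960 (0.833%) and 103 of 3451 (2.98%). The low windows of the other autosomes also had small shares, of 0.495% in F0, 0.328% in F1 and 0.613% in F2. These shares are given as counts, and their difference was not tested.

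Many called cytosines had a wide spread between samples. Of the 138 F0 calls, 87 had at least 1 ram above 50% and at least 1 below 10%, and so had 101 of the 111 F2 calls and 33 of the 93 calls in the F1 pools. On the other autosomes the same held for 3745 of 5528 calls (F0), 1087 of 2837 (F1) and 2296 of 2549 (F2). The values of the diets did not overlap at 75 of the 12420 cytosines in F0 (0.604%), against 0.575% of all listed cytosines, and at 5 of the 138 calls (121 of 5528 on the other autosomes). In F1 they did not overlap at 82 (0.708%), against 0.67% of all. In F2 this held for 0 of 4411, against 0.000817% of all. limma, which tests the levels of samples and so takes their spread into account, called 0 cytosines in each generation at these limits. An unadjusted p under 0.05 was found for 549 (F0), 609 (F1) and 151 (F2) of the chromosome 10 cytosines, or 4.42%, 5.26% and 3.42%, against 4.11%, 4.82% and 2.96% of all listed cytosines. Leaving out methionine ram 3 or control ram 10, 12 or 24 raised the F0 count to between 213 and 223, and leaving out the control pool 24 raised the F1 count to 142.

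Calls of F0 and F1 overlapped at 19 cytosines, which were 17.3% of the F0 and 24.4% of the F1 calls among the 9152 cytosines listed in both, all with the same direction. On the other autosomes 835 calls were shared, which were 19.2% of the F0 and 35.0% of the F1 calls among the cytosines listed in both, and 831 had the same direction. F0 and F2 shared 9 calls among 3186 cytosines (18.4% and 11.5% of the calls, against 21.01% and 17.3% on the other autosomes), 8 of them with the same direction, as had 244 of 312 on the other autosomes. F1 and F2 shared 8 among 3023 (25.8% and 11.3%, against 26.3% and 12.7%). At 1 cytosine of chromosome 10, and at 82 of the other autosomes, the call was made in all 3 generations, and 73 of the 82 had the same direction in each. On chromosome 10 it is the position 26203897 on the plus strand, which the study annotates as intergenic and chose from these samples. Its F0 levels were 39.1%, 0%, 0%, 0% and 58.8% in methionine rams and 96.4%, 45.9%, 0%, 0% and 37.0% in control rams. The F1 levels were 68.2%, 17.6%, 23.3%, 32.1% and 28.6% in the methionine pools and 73.2%, 53.1%, 38.2%, 55.6% and 74.4% in the control pools. The F2 rams ranged from 0% to 53.7% in the methionine line and from 0% to 100% in the control line, with medians of 0% and 50.3%. The groups overlapped in each generation, and rams of both diets were at 0% in F0 and F2.

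Among the calls shared by F0 and F1 with 1 direction and listed in F2, the 3 with the largest differences were examined in F2. The F2 levels had no part in their choice. The F2 rams are grandsons of the same sires, however, so F2 is not an independent check. At 5891826 on the plus strand, 4 of 5 F0 methionine rams had 0% and 1 had 81.8%, while the control rams had 40% to 52.2%. The F1 pools of the methionine line had 21.1%, 6.67%, 0%, 58.8% and 3.70%, and those of the control line had 37.5% to 57.7%. The ram with 81.8% and the pool with 58.8% were those of sire 11. In F2 the methionine line had a median of 17.4% (range 0% to 81.2%) and the control line one of 30.6% (0% to 73.7%), a difference of means of -4.99 points (permutation p = 0.657).

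At 49221955 on the plus strand, the F0 methionine rams had 88.2% to 96.3%, and the control rams had 48.4%, 0%, 100%, 96.9% and 87.9%. The F1 pools of the control line had, in the same order of sires, 44.2%, 38.4%, 71.8%, 56.8% and 92.7%, and those of the methionine line had 79.2% to 94.4%. In F2 the methionine line was higher by 17.3 points (86.2% ± 20.6 against 68.9% ± 36.9, n = 10 each, permutation p = 0.223). At 3596186 on the minus strand, in an intron of DIAPH3, the F0 methionine rams had 56.8%, 44.4%, 98.4%, 40.4% and 86.4% and the control rams 0%, 40.6%, 58.3%, 53.6% and 50%. The pools of sons in the methionine line had 11.4%, 60%, 100%, 40% and 82.5%, and those in the control line had 12.3%, 51.8%, 23.3%, 35.9% and 26.9%. In F2 the difference was 15.96 points (49.3% ± 40.1 against 33.4% ± 31.3, permutation p = 0.283). None of the 3 passed the test in F2 (smallest adjusted p = 0.424). At 49221955 the F2 rams of the methionine line ran from 34.5% to 100% and those of the control line from 2.86% to 100%, and at the other two positions the lowest ram of each line was at 0%.

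No 1 Mb window of chromosome 10 was called by diet. limma over the autosomal windows, with Benjamini-Hochberg adjustment, called 0 of 95 windows in F0, 0 of 94 in F1 and 0 of 82 in F2, and 0% of all windows in each generation. An unadjusted p under 0.05 was found for 2 windows of the chromosome in F0, against 109 of all 2566 windows. In F1 it was found for 1, against 149 of 2526, and in F2 for 2, against 57 of 2154. The smallest p in F0 was that of 79 to 80 Mb, at 62.4% ± 3.34 in methionine and 67.2% ± 1.75 in control rams (limma adjusted p = 0.749), followed by 53 to 54 Mb, at 75.1% and 78.2%. In F1 the smallest were those of 77 to 78 Mb (88.5% against 90.8%) and 59 to 60 Mb (87.7% against 89.8%). In F2 they were those of 25 to 26 Mb (83.7% against 81.1%) and 81 to 82 Mb (61.8% against 57.5%), with an adjusted p of 0.999 in limma. Only the last of these is a low window. Over the 10 low windows the difference ranged from -1.91 to 0.77 points in F0, from -1.62 to 0.65 in F1 and from -2.96 to 4.24 in F2.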

How the data were processed

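The authors sequenced bisulfite-treated DNA, trimmed reads with Trim Galore, aligned them to Oar_rambouillet_v1.0 with Bismark (which uses Bowtie2) and deposited, per cytosine, strand and sample, counts of covering and methylated reads, not normalized. In the files, no listed cytosine has fewer than 10 covering reads in a sample. The RNA file holds raw counts per gene as deposited (Trimmomatic and STAR, per the submitters' processing notes). The 120 columns of unmethylated reads were not used, nor were CHH files.

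The members, the lists and the rules for naming windows and cytosines were chosen with earlier results of these data known. A level is methylated over covering reads. Named were the 6 lowest and 2 highest F0 windows with at least 20 cytosines, the 2 windows with the smallest limma p per generation, the study's shared cytosine, 3 calls shared by F0 and F1 that are listed in F2, and the 3 low-window cytosines with the highest mean coverage in F0. Other items were picked after their values were seen.

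Means of diets and generations were set against each other in permutation tests (two-sided), exact with 5 samples per group and with 100000 resamples otherwise. Levels of windows and cytosines were tested with limma 3.58.1 in R 4.3.3, and called cytosines by a likelihood-ratio test with SciPy. All listed cytosines, or all tested windows, entered the Benjamini-Hochberg adjustment. CPM are counts scaled by the library's total over genes. The tests were checked on simulated data. In the simulated reads, all samples of a diet shared the same probability at a cytosine. The likelihood-ratio test was therefore not checked where rams of a diet differ, as they do here. Reads of 1 library are not independent molecules, so coverage bounds counting error only. Sires pair F0 rams with their sons' pools (correlations of window deviations from 0.26 to 0.77, 10 of 10 above 0.1).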

Additional observations from a re-analysis of the deposited data

Results flagged for a closer look

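Of 36 checks for a sample far from the others of its group, over 6 measures in 3 generations and 2 diets, 1 stood apart, and chance alone gives about 1 in 20. In the F1 methionine pools, the relative depth of the low windows of chromosome 10 was lowest in pool 9, at 1.080, and the nearest other pool was at 1.088. That gap was 0.719 of the group's whole range, above Dixon's limit of 0.71 for 5 samples. The diet difference of chromosome 10 did not differ between generations in any of 12 comparisons of 4 measures (smallest permutation p = 0.150, adjusted p = 0.991).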

How the results depend on the processing

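Of 165 recomputed values, 127 kept their direction and their side of the threshold or stayed within 1.5 times the count. With a coverage minimum of 20 reads, the diet difference of the gap between chromosome 10 and the other autosomes was 0.092 points in F0, that of the chromosome mean was -0.12 in F2, that of the low windows was 0.041 in F2, and the F1 minus F0 difference of the chromosome mean was 0.32. This minimum left 115 chromosome 10 cytosines common to all generations. With low windows defined as under 40%, the F0 diet difference in them was 0.29 and the F2 difference of relative depth 0.015, which was 0.019 without the first Mb, an alternative chosen after seeing the data. So was leaving out ram 400, without which the F2 diet difference in the low windows was 0.47. Leaving out 1 sample in turn gave F0 diet differences from -1.64 to -0.88 for the chromosome mean (exact permutation p from 0.0238, without methionine ram 3, to 0.183; 0.0397 without control ram 12), from -0.32 to 0.24 for the gap and from -1.62 to 0.74 for the low windows. In F1 these ranges were -1.59 to -0.39, -0.15 to 0.26 and -1.29 to 0.29. The sign thus changed without F0 rams 5, 9 or 24, or without F1 pools 3, 23 or 12 (gap) and 5 or 24 (low windows). The counts of called cytosines ran from 137 to 223 in F0 and from 62 to 142 in F1 when a sample was left out. They were 0 with limma in each generation, 73, 57 and 59 with the limit raised to 25 points, and 38, 27 and 3 with a minimum of 20 reads, in F0, F1 and F2. With summed reads, the F2 minus F0 difference was 2.60 for the gap (permutation p = 1e-04) and 5.84 for the low windows, which was 3.22 with p = 0.0352 in the replicate block of sires. The block changed no other call. The low windows were chosen on their F0 level, which favours this direction. The cause of these shifts was not tested. The median coverage of 12 to 37 reads per F2 ram limits the precision of single cytosines.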
